A study of Mus musculus with 4 samples.

Results

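CC chemokines are described here in cultured mouse mammary fibroblasts that carried or lacked the transcription factor Ets2. The 7 genes were Ccl2, Ccl5, Ccl6, Ccl7, Ccl8, Ccl9 and Ccl11, and they were chosen by symbol: each probe set whose platform annotation gave exactly 1 gene, equal to a listed symbol, was taken. This gave 9 probe sets of the 20393 with 1 gene, and 7 of the 12394 genes measured. Ccl6 and Ccl9 had 2 probe sets each and the others 1.

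RNA came from second-passage fibroblasts of female FVB/N mice aged 9 weeks and was hybridized to Affymetrix mouse gene expression arrays, with 1 array for each of 4 groups. The PyMT Ets2-null group carried PyMT, Fsp-cre and Ets2db/loxP, and the PyMT Ets2-present group carried PyMT and Ets2db/loxP. The normal Ets2-null group carried Fsp-cre and Ets2db/loxP, and the normal Ets2-present group carried Ets2db/loxP alone. The db allele lacks the DNA-binding domain in every cell, so all 4 groups had at most a single working copy of Ets2, and loxP marks the copy that Cre removes. PyMT, the polyoma middle T oncogene, is driven in the mammary epithelium by the MMTV promoter. Cre was driven by the fibroblast specific protein promoter and was present in both Ets2-null groups and in neither of the others, so an effect of Cre and the loss of Ets2 cannot be told apart. Whether RNA of several mice was pooled is not given in the sources used here. Each difference between groups below sets 1 array against another, without replicate spread, and has no p-value.

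CC chemokines are small secreted proteins, named for a pair of adjacent cysteines, that draw leukocytes along a gradient by binding receptors on the leukocyte surface. Fibroblasts are a well-known source of several of them, most of all of those that attract monocytes, and in mammary tumours Ccl2 is known for recruiting monocytes that become macrophages. Many of these genes are switched on by NF-kappaB and AP-1 after inflammatory signals, and the eotaxin Ccl11 also by interleukin-4 and STAT6.

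The values are log2 probe set levels, so a difference of 1 is 2-fold. They compare arrays within a probe set, and levels of different probe sets were not set against each other. Correlations between arrays over all probe sets were lowest for the PyMT Ets2-null array, at 0.959 to 0.969 with the other 3, against 0.970 and 0.974 for PyMT Ets2-present with the normal arrays and 0.985 between the normal arrays. The 18S ribosomal RNA control probe sets of the PyMT Ets2-null array were 0.98 to 2.61 above those of the other arrays, and the 7 probe sets for the bacterial spike-in transcripts bioB, bioC and bioD averaged 0.53 above PyMT Ets2-present, 0.79 above normal Ets2-null and 0.58 above normal Ets2-present. The ratio of 3′ to 5′ probe sets, a sign of RNA integrity, did not single it out: the Gapdh difference was 0.86 there and 0.76 to 0.997 in the other 3. The Ets2 probe set read 11.22 in PyMT Ets2-null, 11.21 in PyMT Ets2-present, 11.89 in normal Ets2-null and 11.86 in normal Ets2-present fibroblasts. Its position relative to the deleted exons is not given in the sources used here, so it does not check the deletion. For PyMT fibroblasts with Fsp-cre the paper reported loss of ETS2 protein by western blot and of its phosphorylated form by staining. Whether those cultures were the ones on the arrays is not given.

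The 7 genes split into 2 patterns over the 4 arrays. Ccl2, Ccl7, Ccl11, Ccl6 and Ccl9 were highest in PyMT Ets2-null fibroblasts and lowest in normal Ets2-null fibroblasts, and in PyMT fibroblasts they were 1.61- to 3.34-fold higher without Ets2 than with it. Ccl5 and Ccl8 were lowest in PyMT Ets2-null fibroblasts, where they were 4.06- and 2.22-fold below PyMT Ets2-present fibroblasts. In normal fibroblasts each of the 7 differed in the other direction. A kept gene is a gene whose highest value over the 4 arrays reached 4.63, the 40th percentile of the whole table. All 7 CC chemokines were kept, among 8687 genes, 6 of them above that level in every array. Ccl5 was above it in 2 arrays only and passed through the arrays where it was high.

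**Figure D1:**
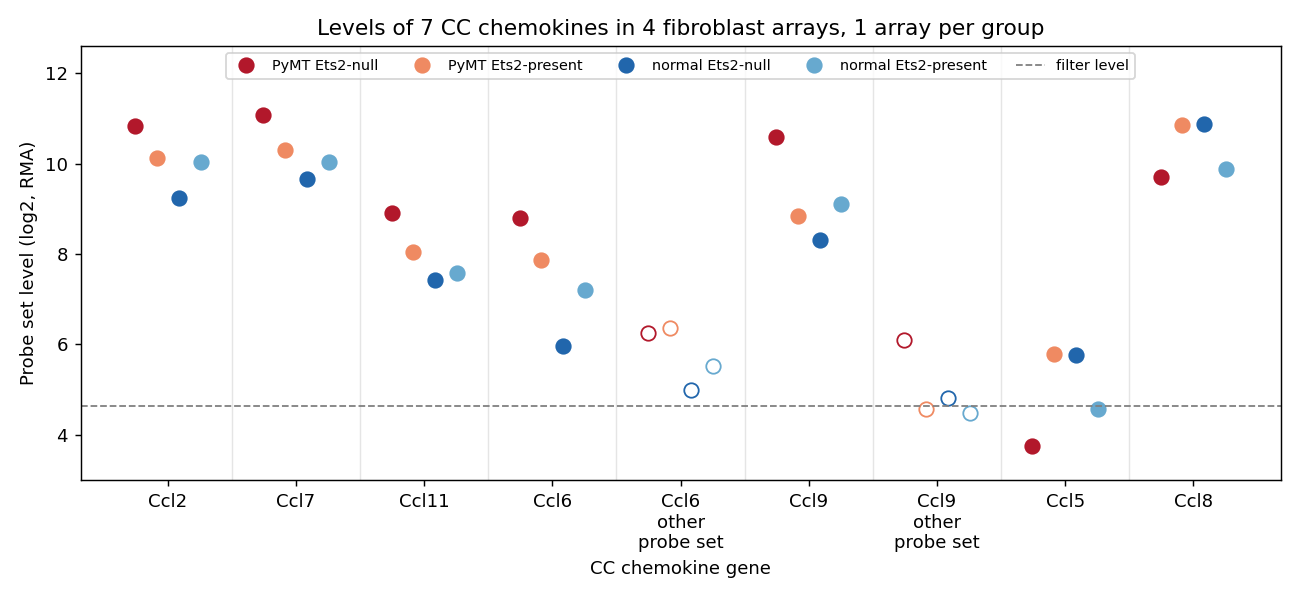
Log2 level of each CC chemokine probe set (y axis) in the PyMT Ets2-null, PyMT Ets2-present, normal Ets2-null and normal Ets2-present arrays, 1 point per array; filled points are the brightest probe set of a gene, open points the second probe sets of Ccl6 and Ccl9, and the dashed line is the filter level of 4.63. The red PyMT Ets2-null point is the highest of 4 for Ccl2, Ccl7, Ccl11, Ccl6 and Ccl9 and the lowest for Ccl5 and Ccl8, while the second Ccl6 probe set has its highest point in PyMT Ets2-present fibroblasts.

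Ccl2, the main ligand of the monocyte receptor Ccr2, read 10.82 in PyMT Ets2-null, 10.13 in PyMT Ets2-present, 9.24 in normal Ets2-null and 10.02 in normal Ets2-present fibroblasts. The 2 Ets2-present arrays nearly coincided, 0.11 apart, and the 2 Ets2-null arrays lay on either side of them, 1.59 apart. Without Ets2 the level was thus 0.69 higher in PyMT and 0.79 lower in normal fibroblasts.

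Ccl7, a second Ccr2 ligand, had the same order: it read 11.08 in PyMT Ets2-null, 10.30 in PyMT Ets2-present, 9.65 in normal Ets2-null and 10.03 in normal Ets2-present fibroblasts. The Ets2 difference was 0.78 in PyMT and -0.38 in normal fibroblasts. Ccl11, or eotaxin, which attracts eosinophils through Ccr3, read 8.91 in PyMT Ets2-null, 8.04 in PyMT Ets2-present, 7.42 in normal Ets2-null and 7.57 in normal Ets2-present fibroblasts. It was 0.87 higher without Ets2 in PyMT fibroblasts, while the 2 normal arrays were only 0.15 apart. Of the 21 pairs among the 7 genes, Ccl7 and Ccl11 had the most alike profiles, with a root mean square difference of 0.11 after each profile was centred on its own mean, followed by Ccl2 and Ccl7 at 0.15 and Ccl2 and Ccl11 at 0.24. The PyMT Ets2 difference of these 3 genes was 0.69 to 0.87, and that of the spike-in probe sets between the same 2 arrays was 0.53. In normal fibroblasts the spike-in difference was -0.21, against -0.79 to -0.15 for the 3 genes. The spike-in mean was 11.35 in PyMT Ets2-null, 10.81 in PyMT Ets2-present, 10.56 in normal Ets2-null and 10.77 in normal Ets2-present fibroblasts. The spike-ins thus had the same order of arrays as these 3 genes, and as Ccl6 by its brighter probe set. The part of these array shifts in the result was not tested.

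Ccl6 and Ccl9 are chemokines described in rodents that bind Ccr1 and attract myeloid cells. By its brighter probe set (1417266_at), Ccl6 read 8.80 in PyMT Ets2-null, 7.86 in PyMT Ets2-present, 5.96 in normal Ets2-null and 7.20 in normal Ets2-present fibroblasts. The normal Ets2-null array was the low point, 2.36-fold below normal Ets2-present and 7.16-fold below PyMT Ets2-null fibroblasts. The second Ccl6 probe set (1420249_s_at, a type that can match several transcripts) read 6.24, 6.36, 4.98 and 5.53 in the same order of groups. It placed the PyMT arrays above the normal ones too, by 1.26 without and 0.84 with Ets2, but its Ets2 difference in PyMT fibroblasts was -0.12, against 0.94 by the brighter probe set.

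Ccl9 had the largest PyMT Ets2 difference among the 5 genes of its pattern. Its brighter probe set (1417936_at) read 10.58 in PyMT Ets2-null, 8.84 in PyMT Ets2-present, 8.31 in normal Ets2-null and 9.11 in normal Ets2-present fibroblasts, a 3.34-fold difference between the PyMT arrays. The second probe set (1448898_at), designed on the same transcript record, read 6.10 in PyMT Ets2-null fibroblasts and 4.57, 4.82 and 4.49 in PyMT Ets2-present, normal Ets2-null and normal Ets2-present fibroblasts, the first and last of these 3 under the filter level. Both probe sets thus put PyMT Ets2-null fibroblasts on top, by 1.74 and 1.52 over PyMT Ets2-present fibroblasts. In normal fibroblasts they disagreed in sign, at -0.80 by the brighter and 0.33 by the dimmer probe set. Counted by probe set, the 2 Ets2 differences had opposite signs in 7 of 9, the exceptions being the second probe sets of Ccl6 and Ccl9.

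Ccl5, also called RANTES, attracts T cells and monocytes. It was dim: 3.76 in PyMT Ets2-null, 5.78 in PyMT Ets2-present, 5.77 in normal Ets2-null and 4.56 in normal Ets2-present fibroblasts. The PyMT Ets2-present and normal Ets2-null arrays agreed within 0.02 and were the high pair, and the other 2 lay under the filter level. The Ets2 difference was -2.02 in PyMT and 1.20 in normal fibroblasts as deposited, and -1.15 and 1.13 with values under the filter level raised to it. With that floor the PyMT difference was 2.22-fold.

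Ccl8, which in mice acts on the receptor Ccr8 of T helper cells, showed the same order far above the filter level. It read 9.71 in PyMT Ets2-null, 10.86 in PyMT Ets2-present, 10.87 in normal Ets2-null and 9.87 in normal Ets2-present fibroblasts. The high pair differed by 0.01 and the low pair by 0.16, and each high array was above each low array by 0.99 to 1.16. Loss of Ets2 thus went with a 2.22-fold lower level in PyMT and a 2.00-fold higher level in normal fibroblasts.

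RefSeq promoters were matched for 3 of the 7 genes, Ccl6, Ccl8 and Ccl9. All 3 are printed, since they stand for both patterns: Ccl6 and Ccl9 were highest and Ccl8 lowest in PyMT Ets2-null fibroblasts. Each window runs from 250 bases before to 50 bases after the annotated start on chromosome 11 of GRCm38.p6, 5′ to 3′ on the strand of the gene, with the motif matches in capitals. The windows are chr11:83593038-83593337 on the minus strand for Ccl6, chr11:82114935-82115234 on the plus strand for Ccl8 and chr11:83578587-83578886 on the minus strand for Ccl9.
Ccl6: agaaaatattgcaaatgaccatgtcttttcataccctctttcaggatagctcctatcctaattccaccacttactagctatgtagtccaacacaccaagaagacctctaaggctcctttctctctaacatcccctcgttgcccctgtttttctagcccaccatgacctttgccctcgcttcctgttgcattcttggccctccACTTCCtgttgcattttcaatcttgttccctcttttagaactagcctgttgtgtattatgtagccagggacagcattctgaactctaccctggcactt
Ccl8: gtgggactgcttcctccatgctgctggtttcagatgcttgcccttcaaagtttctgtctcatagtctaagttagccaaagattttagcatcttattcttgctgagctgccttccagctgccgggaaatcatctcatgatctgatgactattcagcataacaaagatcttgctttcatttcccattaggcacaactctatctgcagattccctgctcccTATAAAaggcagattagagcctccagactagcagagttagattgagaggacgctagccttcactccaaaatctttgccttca
Ccl9: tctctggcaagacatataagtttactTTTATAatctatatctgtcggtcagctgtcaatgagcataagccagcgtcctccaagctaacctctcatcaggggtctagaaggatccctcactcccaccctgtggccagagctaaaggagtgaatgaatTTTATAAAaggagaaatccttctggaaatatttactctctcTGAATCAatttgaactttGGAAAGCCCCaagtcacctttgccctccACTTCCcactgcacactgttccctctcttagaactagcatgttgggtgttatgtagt

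Searched on both strands were the TATA box TATAAA, the AP-1 site TGANTCA, the ETS letters GGAAGT, an interferon-stimulated response element, and the kappaB consensus. Ccl8 held a TATA box that began 32 bases before the start and no other match. Ccl6 held the ETS letters on the opposite strand, beginning 48 bases before the start, and no other match. Ccl9 held the ETS letters at 7 bases and an AP-1 site at 53 bases before the start, a kappaB match at 35 bases, and TATA letters at 224, 94 and 92 bases before it, of which the last 2 overlap. The interferon element was in none of the 3 windows. Of 32851 promoters of the same length, 13.6% held the TATA box, 7.81% the AP-1 site, 23.8% the ETS letters, 3.44% the interferon element and 8.46% the kappaB consensus, so the ETS letters were common. Ccl6 and Ccl9 aligned over 74 columns with 58 identical bases (78.4%), and the shared stretch contains the ETS letters of both. A match is a description of the letters and not a measured binding site.

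The first comparison asked what loss of Ets2 changed in tumour-associated fibroblasts. In PyMT fibroblasts, 5 of the 7 genes were higher and 2 lower without Ets2, with a median of 0.78 against 0.02 over the kept genes. At 2-fold or more, 1 of 7 was higher, Ccl9, where 7.64% of kept genes were, and 2 of 7 were lower, Ccl5 and Ccl8, where 7.77% were. At 4-fold or more Ccl5 alone was lower, where 0.944% of kept genes were, and it passed only with its value under the filter level taken as deposited. Ccl6 at 0.94, Ccl11 at 0.87, Ccl7 at 0.78 and Ccl2 at 0.69 stayed short of 2-fold.

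The second comparison was the same in normal fibroblasts. Here 2 of the 7 were higher and 5 lower without Ets2, with a median of -0.38 against -0.02 over the kept genes. Ccl6 was at least 2-fold lower, where 2.41% of kept genes were, and Ccl5 at least 2-fold higher, where 3.02% were. Ccl8 lay just under the threshold at 0.999, and Ccl2 and Ccl9 were lower by 0.79 and 0.80.

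All 7 genes had Ets2 differences of opposite sign in PyMT and normal fibroblasts, a property of 51.4% of kept genes. These 2 differences share no array. The 5 genes that were higher without Ets2 in PyMT and lower in normal fibroblasts belong to a pattern seen in 27.8% of kept genes, and the pattern of Ccl5 and Ccl8 was seen in 23.7%. Ccl5 was at least 2-fold lower in PyMT and at least 2-fold higher in normal fibroblasts, as were 0.53% of kept genes. The Ets2 difference in PyMT minus that in normal fibroblasts was 2.54 for Ccl9, 2.18 for Ccl6, 1.48 for Ccl2, 1.17 for Ccl7, 1.02 for Ccl11, -2.15 for Ccl8 and -3.23 for Ccl5, with a median of 1.17 against 0.04 over the kept genes. With values under the filter level raised to it, that of Ccl5 was -2.29, and with the 2 probe sets of a gene averaged, those of Ccl9 and Ccl6 were 1.87 and 1.30.

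**Figure D2:**
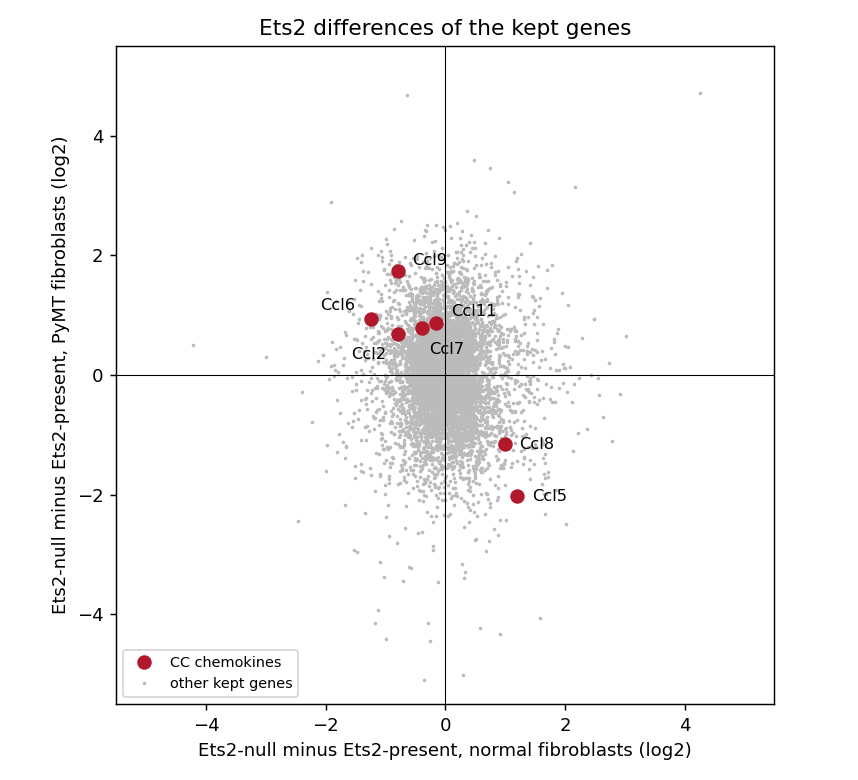
Ets2-null minus Ets2-present log2 difference in normal (x axis) and PyMT (y axis) fibroblasts for the kept genes, 1 point per gene, grey for other genes and red for the 7 CC chemokines. Ccl2, Ccl6, Ccl7, Ccl9 and Ccl11 lie in the upper left part of the plot and Ccl5 and Ccl8 in the lower right part, all within the range of the other genes.

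The remaining comparisons set PyMT against normal fibroblasts. Without Ets2, 5 of 7 genes were at least 2-fold higher in PyMT fibroblasts, where 9.69% of kept genes were, and Ccl5 and Ccl8 at least 2-fold lower, where 11.2% were. The folds were 7.16 for Ccl6, 4.82 for Ccl9, 3.0 for Ccl2, 2.80 for Ccl11 and 2.69 for Ccl7. At 4-fold or more, Ccl6 and Ccl9 were higher, where 1.29% of kept genes were, and Ccl5 lower, where 2.21% were. Ccl5 passed 4-fold only with its value under the filter level taken as deposited. Between the same 2 arrays the spike-in probe sets differed by 0.79, and the part of that shift in the result was not tested. The median over the 7 was 1.49, against 0.05 over the kept genes. With Ets2 the same genes were closer: 0 of 7 were at least 2-fold lower, where 6.23% of kept genes were, and Ccl5 alone was at least 2-fold higher, at 1.22, where 5.42% were. The others ran from -0.27 for Ccl9 to 0.99 for Ccl8, and the median was 0.47 against -0.01.

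The PyMT Ets2-null array enters both the PyMT Ets2 difference and the PyMT difference without Ets2, so these are not separate observations. Ccl2, Ccl6, Ccl7, Ccl9 and Ccl11 had their highest value in that array, as did 35.1% of kept genes, and Ccl5 and Ccl8 their lowest, as did 32.9%.

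**Figure D3:**
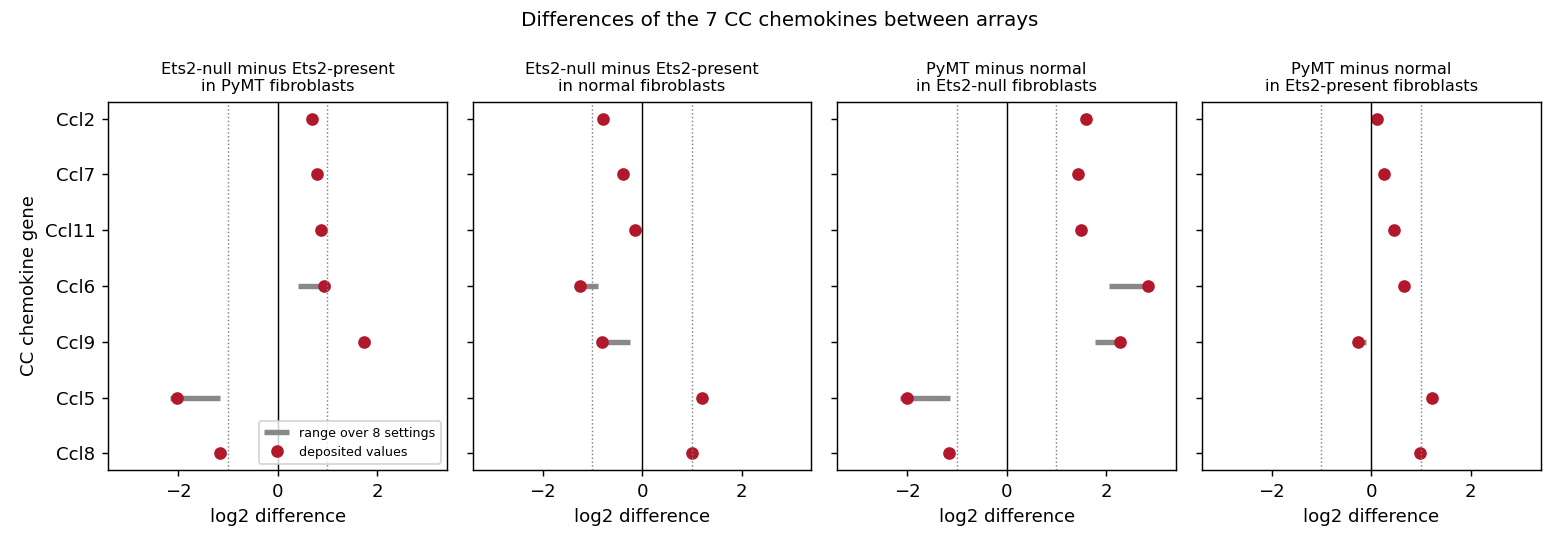
Log2 difference (x axis) of each CC chemokine (rows) in the 4 comparisons (panels); red points are the deposited values, grey bars the range over 8 settings, which are the deposited values and 7 alternatives (Ccl5 has no value in 1 of them), and dotted lines mark 2-fold. In the panel of Ets2-null fibroblasts all 7 points lie beyond a dotted line, and in that of Ets2-present fibroblasts only Ccl5 does.

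To show how far probe choice moves a difference, 3378 genes with at least 2 kept probe sets gave each difference by both of the brightest, and the disagreement was taken. For the 1757 genes with a mean level of at least 7 its SD was 0.37 for the Ets2 difference in PyMT and 0.28 in normal fibroblasts, 0.40 and 0.29 for the PyMT difference without and with Ets2, and 0.50 for the difference between the Ets2 differences. The 2 probe sets of Ccl6 disagreed by 1.06 for the Ets2 difference in PyMT fibroblasts and those of Ccl9 by 1.13 in normal fibroblasts, more than these SDs. This spread covers probe choice only and does not stand for cultures or mice.

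The only model that 4 single arrays allow is additive, with an Ets2 and a PyMT term and 1 residual degree of freedom, and it counts as error any Ets2 effect that differs between PyMT and normal fibroblasts. By limma with Benjamini-Hochberg adjustment at 0.05, 0 of 8687 genes passed for either term, with 339 genes at an unadjusted p under 0.05 for Ets2 and 1068 for PyMT, none of the 7 among them. The 7 Ets2 terms had adjusted p-values of 0.998. Their PyMT terms were led by Ccl6 at 1.75 ± 0.63 (SE, adjusted p = 0.412) and Ccl11 at 0.98 ± 0.36 (SE, adjusted p = 0.417). When eBayes was given an intensity trend, 220 genes passed for the PyMT term and 0 of the 7 were among them. In that fit 1354 of 8687 genes had an unadjusted p under 0.05 for PyMT, 4 of the 7 among them.

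The genes lie in 2 groups on chromosome 11. In order along the chromosome come Ccl2, Ccl7, Ccl11, Ccl12, Ccl8 and Ccl1, then 25 other protein-coding genes, then Ccl5, Ccl9, Ccl6, Ccl3 and Ccl4. Each group held members of both patterns: Ccl8 sits beside Ccl2, Ccl7 and Ccl11, and Ccl5 beside Ccl9 and Ccl6. Genes of opposite pattern were thus close neighbours.

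Genes outside the 7 with the nearest centred profile over the 4 arrays were named for each. For Ccl2 they were Usp13 (root mean square difference 0.08), Rprm (0.09) and Plxdc2 (0.10), and for Ccl7 Rtn2, Oaf and Drc1 (each 0.05). For Ccl11 they were Tead4 (0.03), H2-Bl (0.05) and Apoe (0.05). Those of Ccl9 were Arhgap20 (0.03), Rhbdd3 (0.11) and Serpinb9b (0.11), and those of Ccl6 were Cd151 (0.17), Gpr35 (0.20) and Pdk4 (0.21). The nearest to Ccl8 were Zscan22 (0.06), Src (0.07) and Dclre1b (0.07), and to Ccl5 Tent5c (0.16), Dennd1a (0.18) and Gp1bb (0.18). Ccl5 was nearest to Ccl8 of the other 6, at 0.35. By nearness to Ccl2, Ccl7 ranked 14 among the kept genes, Ccl11 153, Ccl9 1035 and Ccl6 2544. By nearness to Ccl5, Ccl8 ranked 61. Many genes outside the 7 were thus nearer to Ccl2 than Ccl9 and Ccl6 of its own pattern were. A profile over 4 arrays is short, so such likeness is a description.

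Of 17 other CC chemokines listed, 11 were measured and 4 kept. Ccl25, a thymic and gut chemokine that binds Ccr9, followed the pattern of the larger group: it read 7.74 in PyMT Ets2-null, 7.06 in PyMT Ets2-present, 5.33 in normal Ets2-null and 5.70 in normal Ets2-present fibroblasts. Ccl17, a Ccr4 ligand, was highest in PyMT Ets2-present fibroblasts at 6.85, with 5.98 in PyMT Ets2-null, 5.18 in normal Ets2-null and 5.43 in normal Ets2-present fibroblasts. Ccl27a, a skin chemokine whose probe set is of a type that can also detect near-identical copies, was higher without Ets2 in both settings, by 0.70 in PyMT and 1.53 in normal fibroblasts. Ccl12, which lies between Ccl11 and Ccl8 and is a Ccr2 ligand in mice, was under the filter level in both Ets2-null arrays: it read 3.96 in PyMT Ets2-null, 5.16 in PyMT Ets2-present, 3.34 in normal Ets2-null and 5.0 in normal Ets2-present fibroblasts. It thus passed the filter through the arrays with Ets2. Ccl3 and Ccl4, neighbours of Ccl6, were measured and not kept. Of the CC receptors and decoy receptors listed, 14 were measured and 0 kept, the highest value being 4.47 for Ccr6 in PyMT Ets2-null fibroblasts.

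**Figure D4:**
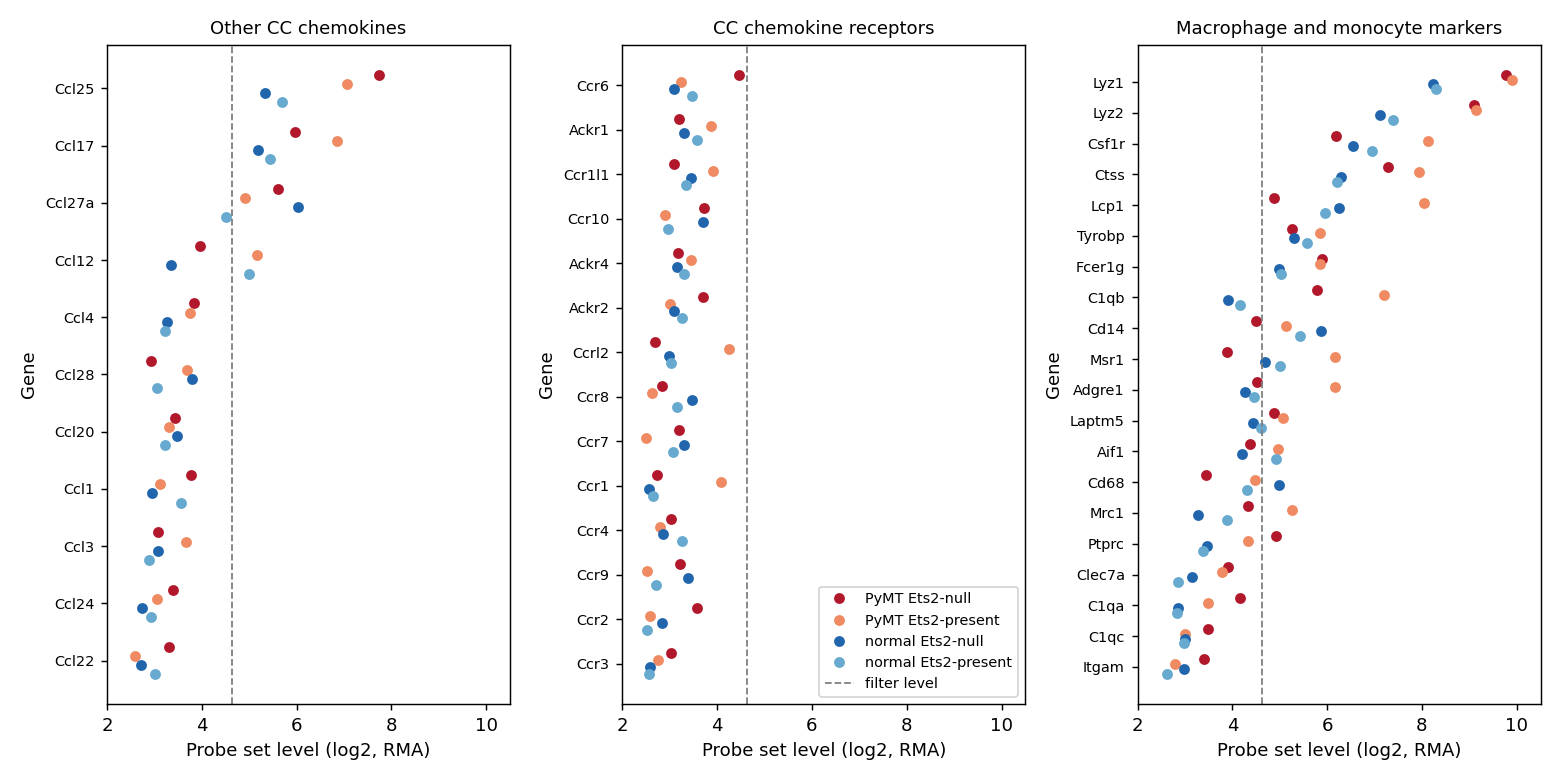
Log2 levels (x axis) of the measured other CC chemokines, CC receptors and macrophage and monocyte markers (rows) in the 4 arrays, 1 point per array, with the filter level of 4.63 as a dashed line. No receptor reaches the line, and Ccl25 lies right of it in all 4 arrays; Lcp1, Csf1r, Msr1 and Adgre1 have their highest point in PyMT Ets2-present fibroblasts.

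Of 7 listed proteases known to cut chemokines, all measured and kept, 4 were at least 2-fold lower without Ets2 in PyMT fibroblasts, where 7.77% of kept genes were. The other 3 differed by -0.11 (Mmp14), -0.44 (Mmp2) and -0.46 (Mmp12). The collagenase Mmp13 read 4.73 in PyMT Ets2-null and 9.06 in PyMT Ets2-present fibroblasts, and the gelatinase Mmp9 read 3.60 and 7.74. The stromelysin Mmp3 read 6.87 in PyMT Ets2-null and 9.54 in PyMT Ets2-present fibroblasts. Dpp4, the dipeptidyl peptidase that removes amino-terminal residues of Ccl5 and Ccl11, read 3.12 in PyMT Ets2-null, 6.08 in PyMT Ets2-present, 3.94 in normal Ets2-null and 5.42 in normal Ets2-present fibroblasts, so it was under the filter level in both Ets2-null arrays. In normal fibroblasts Dpp4, at -1.48, was the only protease of the 7 past 2-fold, where 2.41% of kept genes were at least 2-fold lower.

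Inputs of chemokine genes were mixed. Of 28 NF-kappaB genes listed, 26 were measured and 19 kept, with a median Ets2 difference of 0.11 in PyMT fibroblasts. The subunit Relb (4.04 in PyMT Ets2-null, 5.41 in PyMT Ets2-present) was the only 1 of the 19 at least 2-fold lower, where 7.77% of kept genes were. The inhibitor of apoptosis Birc3 (6.09 in PyMT Ets2-null, 5.02 in PyMT Ets2-present) was the only 1 at least 2-fold higher, where 7.64% were. Of 9 measured genes of the IL-4, IL-13 and IL-6 family inputs 7 were kept: the cytokine Il6 and its signalling receptor Il6st were 1.27 and 1.21 higher without Ets2 in PyMT fibroblasts, and the decoy receptor Il13ra2 was 1.42 lower in PyMT and 1.42 higher in normal fibroblasts. Of these 7, 2 were thus at least 2-fold higher in PyMT fibroblasts without Ets2 and 1 at least 2-fold lower. The shares of kept genes were 7.64% and 7.77%. Of 14 kept interferon signalling genes 2, the transcription factors Irf1 (1.79) and Stat2 (1.05), were at least 2-fold higher in PyMT fibroblasts without Ets2, where 7.64% of kept genes were. The median of the 14 was 0.07. Irf1 was low in PyMT Ets2-present fibroblasts, at 4.59, against 6.38 in PyMT Ets2-null, 6.12 in normal Ets2-null and 6.40 in normal Ets2-present fibroblasts.

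The fibroblast label was checked against markers. All 15 fibroblast markers were above the filter level in every array, with Vim, Col1a2 and Col1a1 between 12.8 and 13.4. Others differed between arrays. For Ets2 loss in PyMT fibroblasts Pdgfra differed by 1.41, Thy1 by -1.25 and Fap by -2.37, and between PyMT and normal fibroblasts without Ets2 the matrix proteoglycans Dcn and Lum differed by -2.41 and -5.80. Macrophage and monocyte markers, cells that also make Ccl6 and Ccl9, were present in every array: 10 of 20 were above the filter level in PyMT Ets2-null, 14 in PyMT Ets2-present, 10 in normal Ets2-null and 10 in normal Ets2-present fibroblasts. Their summed linear signal was 2056 in PyMT Ets2-null, 2928 in PyMT Ets2-present, 998 in normal Ets2-null and 1066 in normal Ets2-present fibroblasts. The complement gene C1qb read 5.79 in PyMT Ets2-null, 7.21 in PyMT Ets2-present, 3.91 in normal Ets2-null and 4.16 in normal Ets2-present fibroblasts, while C1qa, C1qc, Clec7a and Itgam were under the filter level in every array. The other 16 of the 20 were above it in at least 1 array. Lcp1 (4.88 in PyMT Ets2-null, 8.04 in PyMT Ets2-present), Msr1 (3.88 and 6.16), Csf1r (6.19 and 8.12) and Adgre1 (4.52 and 6.17), of which Adgre1 passed the filter through PyMT Ets2-present fibroblasts alone, had the largest PyMT Ets2 differences of the list, and Lyz1 and Lyz2, near-identical copies whose signals may mix, were 0.13 and 0.04 lower. Lyz1 was 1.55 and 1.61 higher in PyMT than in normal fibroblasts without and with Ets2. The part of macrophages in the levels of the 7 genes was not tested. In bulk cultures, fewer cells of a type and less RNA per cell cannot be told apart.

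Markers of other cells were few. Of 12 measured T and NK cell markers, cells that make Ccl5, 1 was kept, Cd247, which passed the filter through the PyMT Ets2-null array alone, at 4.96. Of 12 mast cell, basophil and eosinophil markers 2 were kept, led by the basophil protease Mcpt8 with 4.49 in PyMT Ets2-null, 8.64 in PyMT Ets2-present, 6.09 in normal Ets2-null and 7.27 in normal Ets2-present fibroblasts, and 1 of 7 neutrophil markers was kept, Camp. Endothelial markers gave 3 of 9 kept (Flt1, Kdr and Tek) and epithelial markers 5 of 9. The keratin Krt19 read 7.21 in PyMT Ets2-null, 7.36 in PyMT Ets2-present, 4.38 in normal Ets2-null and 4.98 in normal Ets2-present fibroblasts. The keratin Krt18 was instead higher in both normal arrays, with 4.49 in PyMT Ets2-null, 4.23 in PyMT Ets2-present, 6.72 in normal Ets2-null and 8.05 in normal Ets2-present fibroblasts. Krt5 read 5.24 in PyMT Ets2-null, 5.53 in PyMT Ets2-present, 4.79 in normal Ets2-null and 4.77 in normal Ets2-present fibroblasts. Epcam and Krt14 passed the filter through the PyMT Ets2-null array alone, at 5.095 and 4.85. In PyMT fibroblasts they were 1.42 and 2.43 higher without Ets2. Of 5 measured adipocyte markers only Fabp4 was kept, at 9.99 in PyMT Ets2-null, 9.96 in PyMT Ets2-present, 6.82 in normal Ets2-null and 7.64 in normal Ets2-present fibroblasts. Both PyMT arrays were above both normal arrays for Ccl2, Ccl7, Ccl11, Ccl6, Ccl25 and Ccl17 too, for Ccl2 by only 0.11 between the Ets2-present arrays. Ccl5, Ccl8, Ccl9, Ccl12 and Ccl27a did not have this order. The share of kept genes with this order was not counted, and a link to Fabp4 was not tested. Macrophages express Fabp4 too. The part of these cells in the chemokine levels was not tested.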

How the data were processed

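The authors deposited log2 probe set levels of 4 Affymetrix arrays, computed by RMA (background correction, normalization between arrays and summary of probes). Per the labels' processing notes the tool was RMA, and its version and any other arrays processed with these are not given in the sources used here. Of 22690 probe sets, 20393 had 1 gene in the platform annotation, 691 several and 1606 none; the 9 chemokine probe sets also matched the mouse annotation by Entrez ID. Each gene took the values of its brightest probe set, by mean, and was kept where its highest value reached the 40th percentile of the table (4.63). Differences of log2 values were taken between arrays, and genes at least 2-fold and 4-fold apart were counted. The additive model used limma 3.58.1 in R 4.3.3; other steps used Python 3.11.15 with pandas 2.3.3. The limma fit and the counting were also run on simulated data. The counting data held no noise, and the limma noise was drawn from the same model's own fit. These runs thus checked the steps only and do not bear on the results. Alternatives were a filter at the 60th percentile, no filter, low values raised to the filter level, median centring, quantile and cyclic loess normalization, the mean over probe sets, and an eBayes intensity trend. With 1 array a group, precision is limited by the number of arrays and not by counts.

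The genes, gene lists, filter and tests were chosen with earlier results of these data known. Named are the 7 genes with every probe set; each kept gene of the other CC chemokines and receptors; of other lists, at most the 4 kept genes with the largest PyMT Ets2 difference of at least 2-fold and, for marker lists, the 3 brightest; and the 3 nearest profiles per gene. C1qa, C1qb, C1qc, Clec7a, Itgam, Dcn, Lum, Mmp2, Mmp12, Mmp14, Ccl3, Ccl4 and Ccr6 were named after their values were seen. Protein sequences were not used here.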

Additional observations from a re-analysis of the deposited data

Results flagged for a closer look

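Each of the 7 CC chemokines differed in one direction without Ets2 in the PyMT arrays and in the opposite direction in the normal arrays. So did 51.4% of kept genes. With 1 array per group these differences between the 2 settings were not tested. The Ets2 difference in PyMT minus that in normal fibroblasts, on the log2 scale, was 1.476 for Ccl2, 1.166 for Ccl7, 1.019 for Ccl11, 2.178 for Ccl6 and 2.54 for Ccl9. For Ccl5 it was -3.225 and for Ccl8 -2.15. Of the 4 Ccl5 values 2 were under the filter level, and with these raised to it the Ccl5 value was -2.29. The smallest normal difference behind these values was that of Ccl11, at -0.15, and the second probe sets of Ccl6 and Ccl9 did not have opposite signs.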

How the results depend on the processing

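The 35 differences of the 7 genes kept their sign in all 240 values under 7 alternatives, 234 of them within 1.5-fold of the deposited values. The alternatives changed the filter, the scaling or the use of the brightest probe set in place of the mean. Many of these values could not move. The 60th percentile filter and no filter keep or drop a gene and do not change its values. Raising low values to the filter level could change only Ccl5, and averaging probe sets only Ccl6 and Ccl9. Only median centring, quantile normalization and cyclic loess could move the differences of every gene. The counts of 240 and 234 thus overstate how far the signs were tested. In an alternative chosen after seeing the data, the second probe set taken alone turned the sign of the PyMT Ets2 difference of Ccl6 (-0.12), the normal Ets2 difference of Ccl9 (0.33) and the PyMT difference of Ccl9 with Ets2 (0.08). Those of the 7 CC chemokines that were kept under each of the 7 alternatives all had 2 Ets2 differences of opposite sign, with the same limit. Over all kept genes the share with opposite signs ran from 45.8% to 51.4%. Ccl5 was not kept at the 60th percentile, so it has no value there, and raising low values to the filter level moved its PyMT Ets2 difference to -1.15, its PyMT difference without Ets2 to -1.13 and the difference between its Ets2 differences to -2.29. Averaging probe sets moved the PyMT difference of Ccl6 without Ets2 to 2.05 and the differences between the Ets2 differences to 1.30 for Ccl6 and 1.87 for Ccl9. Centring each array on its median moved the median PyMT Ets2 difference of all kept genes by over 0.1, to 0.13 from 0.02.

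Counts of the 7 genes at least 2-fold apart moved by 1 at most. At the 60th percentile, where 6 were kept, 1 was lower for Ets2 loss in PyMT, 0 higher for Ets2 loss in normal fibroblasts, 1 lower in PyMT without Ets2 and 0 higher in PyMT with Ets2. With median centring, 2 were higher for Ets2 loss in PyMT and 2 in normal fibroblasts. With quantile normalization again, 2 were higher for Ets2 loss in normal fibroblasts and 2 in PyMT with Ets2, and with cyclic loess 2 were higher in these and for Ets2 loss in PyMT. With the mean over probe sets, 0 were lower for Ets2 loss in normal fibroblasts.

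Counts over all kept genes followed the filter, which sets how many genes are tested. For Ets2 loss in PyMT fibroblasts 675 were at least 2-fold lower and 664 higher; at the 60th percentile these were 319 and 227, without a filter 1029 were higher, and with low values raised 376 were higher. For Ets2 loss in normal fibroblasts 209 were lower and 262 higher, against 59 and 82 at the 60th percentile, 338 lower without a filter, and 104 and 143 with low values raised. For PyMT without Ets2, 970 were lower and 842 higher, against 524 and 325 at the 60th percentile and 523 higher with low values raised. For PyMT with Ets2, 541 were lower and 471 higher, against 300 and 203 at the 60th percentile. The additive PyMT term called 0 genes, and 220 with an intensity trend; the cause was not tested.

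No paired analysis was possible because each group had 1 array, and for the same reason no array was left out within a group. Signal close to background limits Ccl5, the second Ccl9 probe set and Ccl12.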
